A study of Mus musculus with 20 samples.

Results

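Chromatin accessibility on day 4 of GATA6 induction was compared with that of uninduced mouse embryonic stem (ES) cells at every region where the authors had called a GATA6 peak, and the differences were summarised by the nearest gene and by gene function. All 42403 regions of the deposited table entered the comparison. Each was assigned to the protein-coding gene whose annotated start lay closest to its centre, which gave 12245 genes with at least 1 region. The nearest gene is an assignment by distance and not a shown target. The regions were chosen by the authors for a GATA6 peak, so sites that GATA6 did not bind are not in the comparison. The peaks were called across times of induction, so a region need not hold GATA6 on day 4. The authors' Transient class, bound early and later losing GATA6, held 38.4% of the regions.

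Accessibility was measured by ATAC-seq, an assay that reads open DNA by where the transposase Tn5 can cut and tag it. All samples were KH2 ES cells, a C57BL/6 x 129/Sv line, and all carried the same doxycycline-inducible cassette with the Gata6 open reading frame. The cells were grown in serum and LIF on feeders. The d0 group had received no doxycycline (3 cultures), and the day 4 group had received 1 µg/mL doxycycline for 96 h in ES medium (2 cultures). Another group enters below as a base for testing, the 3 libraries titled for 8 hours of doxycycline, whose treatment label reads 16h dox. The libraries titled for 16 hours, 1 day and 2 days at 1 µg/mL (3 each) enter that test only through its estimate of spread and the set of regions fitted. Their treatment labels also read later times than their titles. The sources used here do not say which of the selected ES clones gave these libraries, nor whether feeders were removed, and reads from the cassette cannot be told apart from reads of the Gata6 exons. In a bulk sample, fewer cells with an open region and less opening per cell cannot be told apart.

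GATA6 is a zinc finger transcription factor that binds DNA elements with the core GATA, and it drives the formation of primitive endoderm, the layer of the blastocyst that lines the epiblast and later forms the visceral and parietal yolk sac. Its expression in ES cells is known to turn them towards this lineage, in which SOX17, GATA4 and FOXA2 act and the pluripotency factors OCT4 (Pou5f1), SOX2, NANOG and ESRRB are lost. Parietal endoderm is known for secreting a thick basement membrane, and visceral endoderm for taking up and digesting maternal proteins and for secreting transport proteins.

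The DNA under the regions on which the results turned was read from the mm10 reference assembly (RefSeq). Shown are 30 bases around the best match to the GATA6 motif that the authors recorded for a region, on the strand of the motif, with the 13 bases of the match in capitals. The first group is from the region with the largest gain near an endoderm regulator (Sox17, Foxa2, Gata4, Hnf4a) or near a gene among the largest gains (Pxdn, Ctsh, Srgn).
Sox17, chr1:4538499-4538528, plus strand: gtgacggaGTAAGATAAGGAAtgtaaatgt
Foxa2, chr2:148124731-148124760, minus strand: gttgtgggaCAGAGAAAAGACAgagctgga
Gata4, chr14:63283715-63283744, minus strand: agtcgccacTGGAGATAAGGAGaatatata
Hnf4a, chr2:163506794-163506823, plus strand: aagaatcaATAAGATAACCGGgcggggtgg
Pxdn, chr12:29961664-29961693, minus strand: ctctgccttGCTAGATAACACAccacacat
Ctsh, chr9:90039394-90039423, minus strand: atcaaaaagACTAGATAAGAGAggattagc
Srgn, chr10:62529038-62529067, minus strand: ttaacttttTTGAGATAAGGTCtcaggtag

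The second group is from the region with the largest loss near a pluripotency gene (Klf2, Nanog, Esrrb) or near a gene among the largest losses (Itga6, Col18a1, Bcl2l11).
Klf2, chr8:72316242-72316271, plus strand: gaggagctAAAAGAAAAGATAtgcagaaag
Nanog, chr6:122707342-122707371, plus strand: gggatgtcTTTAGATCAGAGGatgccccct
Esrrb, chr12:86501309-86501338, plus strand: taagtattTGGAGATCAGCAAggattttca
Itga6, chr2:71745530-71745559, plus strand: ggtgggggTGGAGATAAGGGGgtgcgaatc
Col18a1, chr10:77190803-77190832, minus strand: cctgttactTGCAGATAAAAGCtgtctaga
Bcl2l11, chr2:128265739-128265768, minus strand: tgatgtgtgACCAGATAAGGGTtgtaatga
The Foxa2, Nanog and Esrrb matches hold no GATA in capitals on the strand shown, and the Nanog and Esrrb matches read GATC. Over all regions with a recorded match, 82.5% of the matches held GATA. The share was 82.3% among the regions higher on day 4 and 67.6% among those lower on day 4, by the call given next. A match is a description of these letters and not a shown binding site.

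The values were RPM per region, read counts scaled by the authors to the size of the library and averaged over the cultures of a group, so d0 and day 4 had 1 value each and no spread. RPM is not divided by the width of the region, so levels were compared between groups and not between genes. A difference is the day 4 value minus the d0 value of log2(RPM + 0.03), and a region or gene is called higher or lower where the difference passed 1 (2-fold on that scale). The value of a gene is the mean RPM over its regions. Adding 0.03 understates the change of weak regions. No p-value can be attached to these calls.

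By this call 13147 regions were higher on day 4 (31%) and 3084 were lower (7.27%), 16231 in all (38.3%). Of the 3084 lower regions 2893 were of the authors' Transient class, which loses GATA6 during the course. Of the 12245 genes, 3503 were higher (28.6%) and 479 were lower (3.91%). The summed RPM over all regions was 6408 at d0 and 10635 on day 4, and the whole distribution moved: the median of log2(RPM + 0.03) was 0.56 higher on day 4. Differences are given without removing this shift, and a gene with a difference near 0.56 moved with the bulk of the regions. With both columns centred on their medians, 6684 regions were higher and 6959 lower, and 1297 genes were higher and 1463 lower. Quantile normalisation gave 6838 and 6742 regions, and 1310 and 1466 genes. Both scalings bring higher and lower calls towards balance by construction, so these counts do not test the excess of higher calls. A difference between 0 and 0.56 turns negative when the columns are centred.

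Single libraries allowed a test with replicates, which the averages did not. Read counts of single libraries were worked out from the digits of the deposited averages for the 8h, 16h, d1, d2 and day 4 groups, but not for d0. The 8h group stood close to d0: 0 genes and 0 regions differed from d0 by 2-fold, and the median gene difference was 0.02. Day 4 was therefore tested against the 3 libraries of 8h with limma, at the 7384 genes for which every region could be worked out in all these libraries. The fit also held the 16h, d1 and d2 libraries, and the spread was estimated over all of them. The limma adjusted p below is from this test (Benjamini-Hochberg over those genes, 2 libraries against 3). Its standard error was 0.33 on the log2 scale for each gene, so the adjusted p follows the size of the change and not the spread at that gene. In this test 2099 genes rose (28.4%) and 264 fell (3.58%), and of 24967 regions 7598 rose (30.4%) and 1643 fell (6.58%). With only the 8h and day 4 libraries in the fit these counts were the same. For genes the 2-fold limit alone set the calls, since a change of 0.78 already passed (Pdpn, limma adjusted p = 0.041). The 8h libraries differed among themselves, library B being highest and library C lowest at most genes. In the regions worked out, library B held 1100798 reads and library C 592500, at depths of 213 and 211 M. Without library B the counts were 2621 and 153, and without library C they were 1565 and 417. The 2 day 4 libraries were close to each other, with a median absolute difference of 0.16 on the log2 scale over 11774 genes. Of 3267 higher genes with both day 4 libraries known, 2825 passed 2-fold over d0 in each of them, and of 479 lower genes 380 did.

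**Figure D1:**
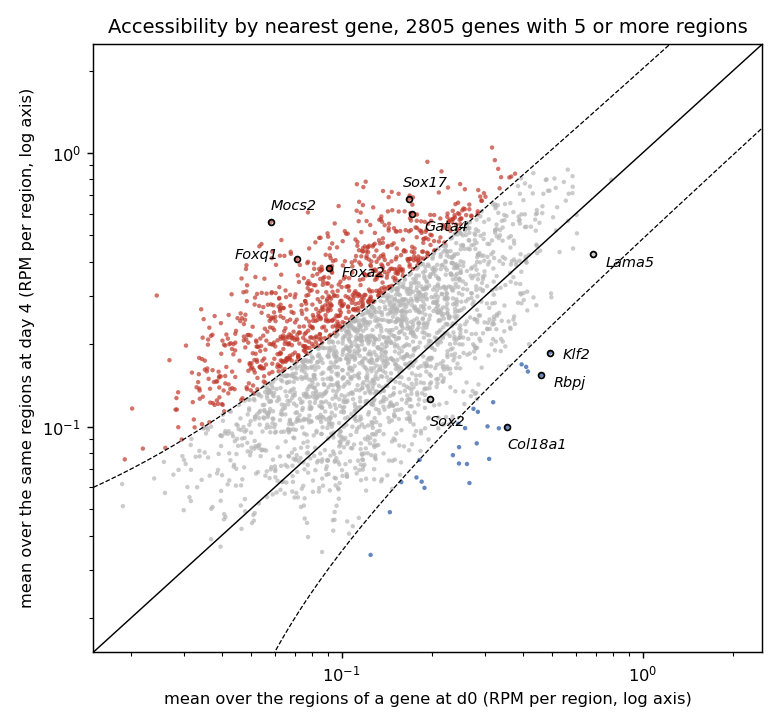
Mean RPM per region on day 4 (vertical axis) against d0 (horizontal axis), both on log axes, for the genes with at least 5 GATA6 regions; 1 point is 1 gene, and dashed lines mark the 2-fold calls (red higher, blue lower, grey neither). Most points lie above the diagonal, Foxq1 and Mocs2 are far above it, and Col18a1, Rbpj and Klf2 are below the lower dashed line.

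Genes were described as largest gains or losses only where they had at least 5 regions and at least 2 RPM summed over them at d0 or on day 4. This was met by 1187 genes. Gains and losses were ranked by day 4 minus d0, and the day 4 average is made of the same 2 libraries that the test uses. Separation from the 8h libraries and small p-values at the genes so chosen are therefore partly built in by the choice. The 12 largest gains included genes of the extracellular matrix (Pxdn), of proteoglycans (Srgn, Hs3st1) and of lysosomal proteolysis (Lgmn, Ctsh). Pxdn encodes peroxidasin, which cross-links collagen IV in basement membranes. Its 5 regions averaged 0.0534 RPM at d0 and 0.475 and 0.436 in the 2 day 4 libraries, a difference of 2.54, and the 8h libraries read 0.110, 0.0827 and 0.0294. Both day 4 libraries were therefore far above every 8h library (limma log2 change 2.31, adjusted p = 2.0e-10). The region with the sequence given above lay 23.7 kb into an intron of Pxdn and went from 0.148 RPM at d0 to 1.52 and 1.47 in the day 4 libraries.

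Srgn encodes serglycin, the core protein of a secretory granule proteoglycan. Its 8 regions averaged 0.120 RPM at d0 and 0.758 and 0.812 in the day 4 libraries (difference 2.44, limma adjusted p = 1.5e-10), and the region shown, 1.08 kb upstream of the start, reached 1.80 and 1.82 from 0.156. Hs3st1, a heparan sulfate sulfotransferase, went from 0.0632 RPM to 0.475 and 0.486 over 9 regions (difference 2.45, limma adjusted p = 6.3e-11). The day 4 libraries of both genes lay close together and far from d0. Lgmn and Ctsh encode the lysosomal proteases legumain and cathepsin H. Lgmn went from 0.118 to 0.741 and 0.759 RPM over 6 regions (difference 2.40, limma adjusted p = 6.9e-11). Ctsh went from 0.0978 to 0.600 and 0.679 RPM over 5 regions (difference 2.39, limma adjusted p = 2.8e-10), and its region shown, 15.1 kb upstream, went from 0.0772 to 1.07 and 1.28.

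The other genes of this group were Mocs2 (2.74, a molybdenum cofactor enzyme), Zfp622 (2.57), Esd (2.55, esterase D), Ankrd33b (2.49), Ehd4 (2.42, an endosomal ATPase), Fhdc1 (2.39) and F930015N05Rik (2.38). For several of these the region with the largest gain lay far from the start or inside another gene. The largest gain assigned to Zfp622 lay in an intron of Retreg1, that assigned to Esd in an intron of Lrch1, and that of Mocs2 in intergenic DNA 137.5 kb upstream of the start. Of the regions of these 12 genes most were higher, from 4 of 7 for Ehd4 to all 8 for Zfp622, and Esd and Pxdn were higher at all 5.

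The 12 largest losses included factors of pluripotency (Klf2, Tfap2c), of Notch signalling (Rbpj) and of epithelial adhesion (Cldn4, Itga6). Col18a1 encodes a collagen whose C-terminal fragment is endostatin. Its 9 regions averaged 0.355 RPM at d0 and 0.107 and 0.0920 in the day 4 libraries, a difference of -1.57, and 6 of 9 regions were lower. The 8h libraries read 0.352, 0.511 and 0.247, so both day 4 libraries lay below every 8h library (limma adjusted p = 1.8e-05). Rbpj, the DNA-binding partner of the Notch intracellular domain, went from 0.461 RPM to 0.146 and 0.163 over 13 regions, with 9 lower (difference -1.41, limma adjusted p = 0.00059). Its 8h libraries read 0.405, 0.562 and 0.313, and the groups did not overlap.

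Klf2, a zinc finger factor of naive pluripotency, went from 0.492 RPM to 0.186 and 0.187 over 5 regions (difference -1.27, limma adjusted p = 0.00054), against 0.436, 0.745 and 0.375 in the 8h libraries. The region shown, 2.78 kb upstream of Klf2, held 0.812 RPM at d0 and 0.156 and 0.166 in the day 4 libraries. Tfap2c, an AP-2 factor of germ cells, trophoblast and naive ES cells, went from 0.281 to 0.0942 and 0.0795 RPM over 8 regions (-1.41). At both factors the day 4 libraries lay close together and far below d0. Phc1, a Polycomb subunit, had a difference of -1.24 (limma adjusted p = 0.012), and Cldn4, a tight junction claudin, one of -1.19, from 0.319 to 0.101 and 0.145 RPM (limma adjusted p = 0.00065). Pknox2, a homeobox factor, had -1.16 (limma adjusted p = 0.0012), Vwa3b -1.17 and Bcl2l11, the apoptosis activator BIM, -1.10.

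The last 3 of the 12, Itga6 (-0.99), Gli2 (-0.97) and A830018L16Rik (-0.95), did not pass the call. Itga6, the laminin receptor subunit alpha 6, went from 0.360 to 0.166 RPM over 17 regions with 7 lower, and its promoter region, shown above, went from 0.696 to 0.126 and 0.134 in the day 4 libraries. The largest gain was 2.74 (Mocs2) and the largest loss -1.57 (Col18a1) among these genes. Relative to the shift of 0.56 they were 2.18 and -2.13, of like size.

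**Figure D2:**
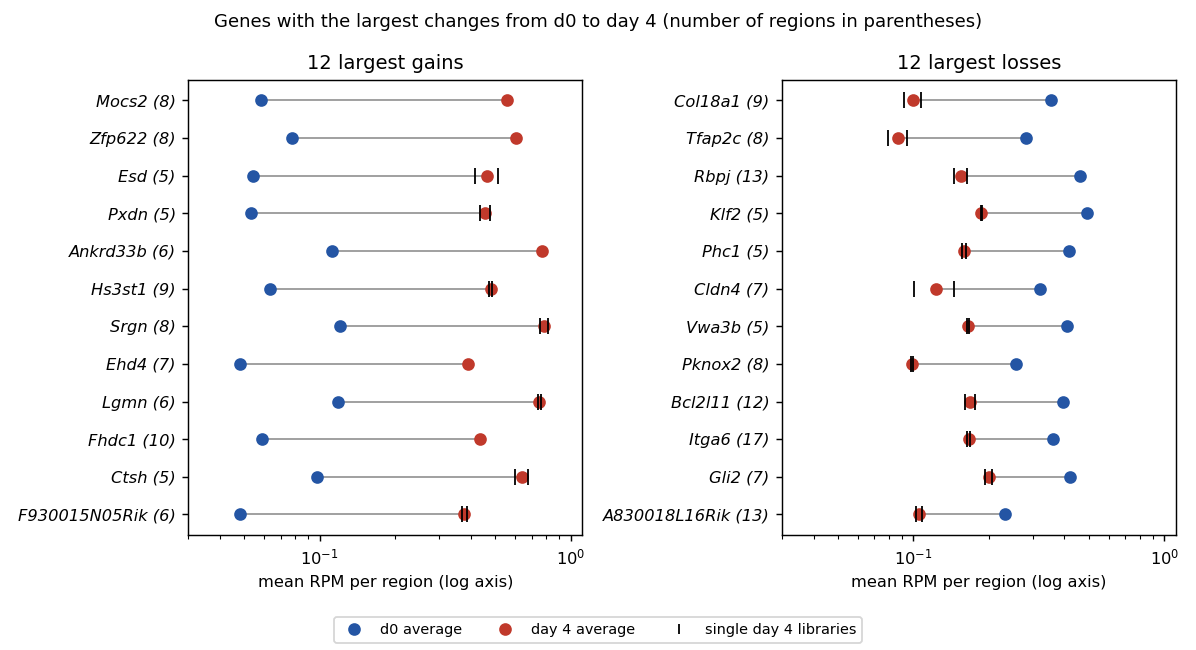
Mean RPM per region (log axis) at d0 (blue) and on day 4 (red) for the 12 genes with the largest gains (left) and the 12 with the largest losses (right), with the number of regions in parentheses; black ticks are the 2 day 4 libraries where all regions of the gene could be worked out. The ticks lie close to the day 4 average and clear of the d0 point in each gene that has them. The genes were chosen by the difference between that average and d0, so this distance is partly built in.

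Some genes had many regions that moved the same way. Gata4, a GATA factor of primitive endoderm and heart, was the nearest gene of 16 regions, and all 16 were higher, with differences from 1.02 to 2.65. Its mean went from 0.172 to 0.598 RPM, and over the 12 regions known in single libraries it went from 0.0937 at d0 to 0.321 and 0.317. Foxa2, a forkhead pioneer factor of all endoderm, had 18 of 31 regions higher (0.0908 to 0.379 RPM, difference 1.76). Over 28 of these regions the d0 mean was 0.0747, and the day 4 libraries read 0.261 and 0.282. The promoter regions of Foxa2 and its other regions moved by like amounts, 1.78 and 1.76.

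Tcf7l2, a nuclear effector of Wnt signalling, had the most higher regions of any gene, 25 of 42 (0.151 to 0.409 RPM, difference 1.27). Lama1, the alpha 1 chain of the laminin of early basement membranes, had 17 of 21 higher (0.199 to 0.565 RPM, 1.38). Foxq1, a forkhead factor, had 15 of 17 higher and the steepest difference of this group (0.0710 to 0.408 RPM, 2.12, limma adjusted p = 2.5e-09). Bend5 had 15 of 21 higher (1.67). Meis1, Hes1, Cited2 and Ryr2 were among the 10 genes with the most higher regions, with differences of 1.06, 1.14, 1.10 and 0.69. Meis1 also had 2 lower regions and Hes1 and Ryr2 1 each, so a count of higher regions did not mean that a locus moved as a block.

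The regions at these loci carried other marks that the comparison did not use. The authors had called SOX17 peaks during the same induction, and peaks of OCT4, SOX2 or ESRRB in undifferentiated ES cells. Of all regions 44.5% had a SOX17 peak, as did 80.2% of the higher regions and 15.6% of the lower ones. Of all regions 20.9% had an OCT4, SOX2 or ESRRB peak in undifferentiated cells, as did 6.84% of the higher and 82.2% of the lower ones. A lower call needs signal at d0, where the median region held 0.0777 RPM. In the paper, sites bound by these factors were more accessible in ES cells than sites without them. The contrast is therefore partly built into the call, and shares among regions of like d0 accessibility were not examined. A SOX17 peak was present at 15 of 15 higher regions of Foxq1, 17 of 18 of Foxa2, 14 of 16 of Gata4, 14 of 15 of Bend5, 16 of 25 of Tcf7l2 and 12 of 17 of Lama1.

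Many loci moved both ways. Of 5363 genes with at least 3 regions, 1122 (20.9%) had both a higher and a lower region, 2952 had higher regions and none lower, and 534 had lower regions and none higher. All regions were higher at 112 of them and lower at 3. Myc, the growth-promoting transcription factor, had 9 higher and 8 lower regions of 37, which left its mean at 0.225 RPM at d0 and 0.259 on day 4 (0.18). Its higher regions lay a median of 229 kb from the start and 8 of 9 had a SOX17 peak. Its lower regions lay a median of 99.3 kb from the start, none of 8 had a SOX17 peak and 6 had a pluripotency factor peak. A gene mean near 0 at Myc therefore covered changes in both directions at different sites.

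Sox2, the pluripotency and neural factor, showed a like pattern, with 4 higher and 7 lower of 26 regions. Its 4 higher regions all had a SOX17 peak and lay a median of 386 kb from the start, and its 7 lower regions had none, with 6 of 7 holding a pluripotency factor peak and a median distance of 106 kb. The largest loss, 18.3 kb downstream of Sox2, went from 0.361 RPM at d0 to 0.0251 and 0.0374 in the day 4 libraries. Tle4, a Groucho corepressor, and Mycn each had 6 higher and 6 lower regions, and the 6 lower regions of each held a pluripotency factor peak. Klf4 had 11 higher regions, 10 with a SOX17 peak, and 2 lower regions, both with a pluripotency factor peak, and its mean went from 0.242 to 0.362 RPM (0.53). Rbpj had 9 lower regions and none higher, and Dpp6, a potassium channel subunit, 6 lower and 2 higher of 15. The lower Rbpj regions at 1.134, 76.299 and 89.528 kb had a SOX17 peak beside a pluripotency factor peak, so the split seen at Myc and Sox2 was not general.

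**Figure D3:**
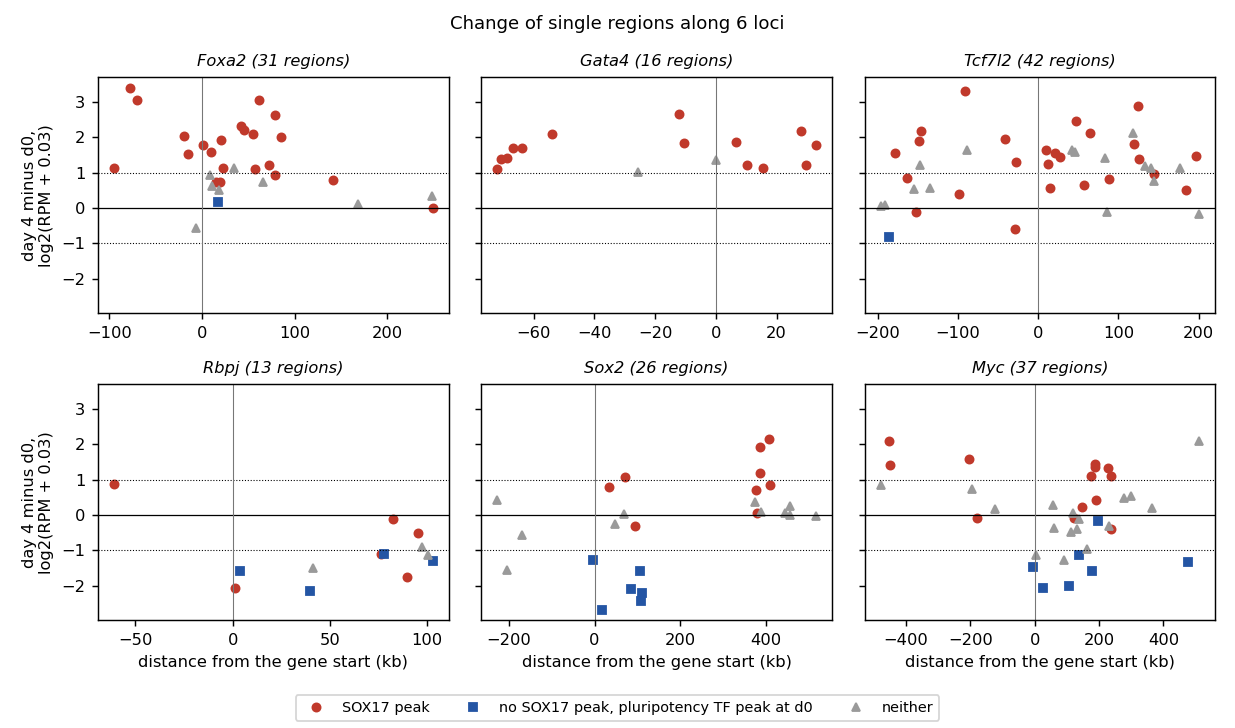
Difference between day 4 and d0 in log2(RPM + 0.03) (vertical axis) against the distance of a region from the gene start in kb (horizontal axis) at 6 loci; red circles have a SOX17 peak, blue squares have no SOX17 peak but an OCT4, SOX2 or ESRRB peak in undifferentiated cells, grey triangles have neither, and dotted lines mark the 2-fold call. Foxa2, Gata4 and Tcf7l2 have only neutral or higher regions, Rbpj only neutral or lower ones, and Sox2 and Myc have both.

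Gene function was examined with 26 lists of genes. Each list is described by the median difference of its genes and by its counts, beside the median of 0.56 and the shares of 28.6% higher and 3.91% lower over all genes. The highest medians were those of the basement membrane (1.30), visceral endoderm (1.27), endocytic (1.23) and secreted protein (1.22) lists. The lowest were those of core pluripotency (-0.56), formative pluripotency (-0.28) and LIF signalling (-0.13). Of the 26 medians, 10 had a positive sign as deposited and a negative one with centred or quantile normalised columns: naive pluripotency, FGF, Wnt, retinoid, integrins, DNA methylation and Polycomb, trophoblast, mesoderm, feeder and housekeeping genes.

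**Figure D4:**
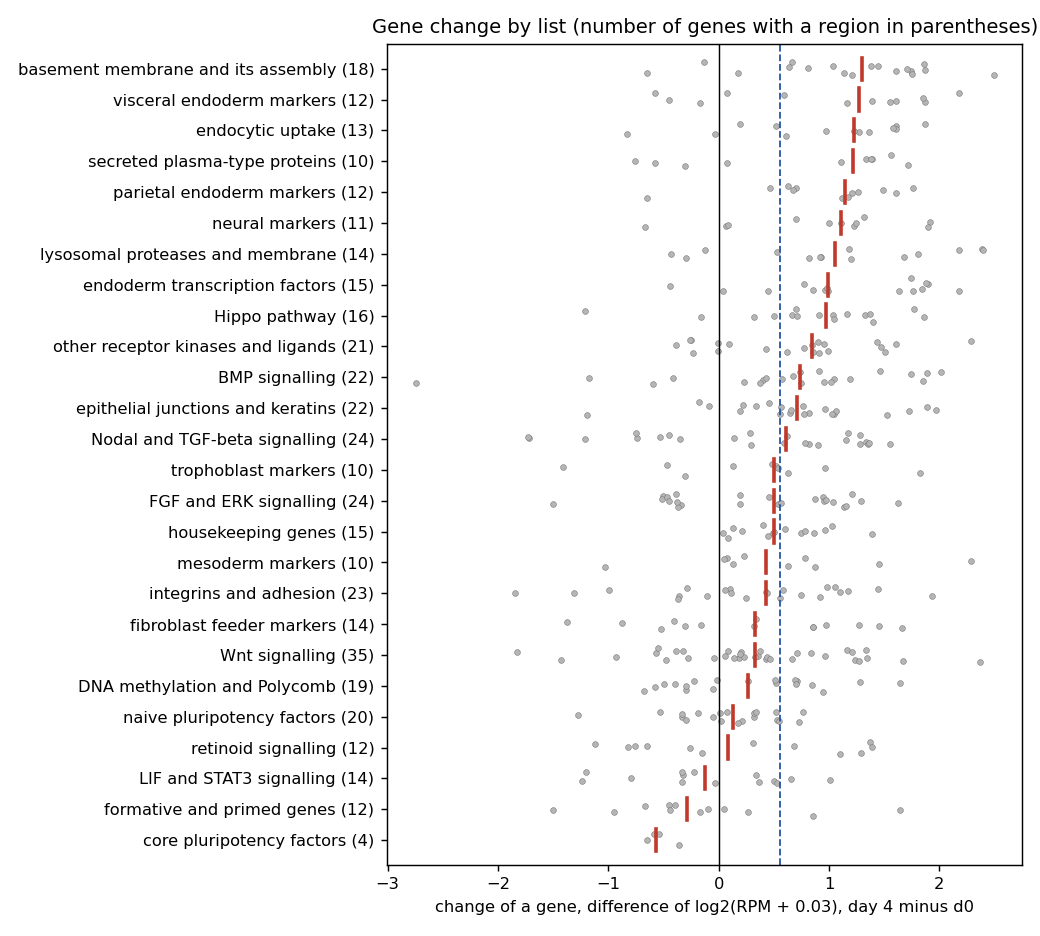
Difference between day 4 and d0 in log2 of mean RPM per region + 0.03 (horizontal axis) for the genes of 26 lists; 1 grey point is 1 gene, red bars are list medians, the black line is 0 and the dashed blue line is the median shift of 0.56. The endoderm, basement membrane, endocytic, lysosomal, parietal and visceral lists have medians to the right of the dashed line, and the core and formative pluripotency lists have medians to the left of 0.

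Of the endoderm transcription factors 7 of 15 genes with a region were higher and none was lower (median 0.99), and 92 of their 170 regions were higher. Sox17, an SRY-box factor of primitive and definitive endoderm, went from 0.168 RPM to 0.641 and 0.719 over 12 regions (difference 1.84). The 8h libraries read 0.154, 0.183 and 0.103, well below both day 4 libraries (limma adjusted p = 2.2e-08). The region shown, 40.4 kb upstream of Sox17, went from 0.242 RPM to 2.02 and 2.66. Gata6 itself, on chromosome 18, had 13 of 19 regions higher, and over the 17 regions known in single libraries it went from 0.0961 RPM at d0 to 0.344 and 0.400. Its promoter region went from 0.860 to 3.49 RPM and its region in an exon, where cassette reads could fall, from 0.0396 to 0.0463, which is no gain at the exon.

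Foxa3, the third forkhead of the endodermal group, went from 0.235 to 0.943 RPM at its single region (1.87, limma adjusted p = 6.7e-08). That region lay 3.67 kb from the start of Foxa3 and 4.51 kb from that of Sympk. Hnf4a, a nuclear receptor of visceral endoderm and liver, went from 0.0582 to 0.370 RPM over 2 regions (2.18). Its region shown holds the start of the gene and went from 0.0951 RPM to 0.683 and 0.721. Foxa1, the remaining member of that forkhead group, gave -0.44 (0.119 to 0.0798 RPM), and Gata5 gave 0.04 at its single region. The sign of Gata5 and of Hhex (0.44) turned with centred or quantile normalised columns. Klf6 (0.98, 12 of 33 regions higher), Prdm1 (0.96) and Sox7 (0.86) did not pass the call.

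Of the core pluripotency genes Pou5f1, Sox2, Nanog and Esrrb none was called, although 14 of their 52 regions were lower and 5 higher. Pou5f1, which encodes OCT4, went from 0.496 RPM to 0.311 and 0.302 (-0.65), and Sox2 from 0.197 to 0.117 and 0.134 (-0.54, but 0.05 with the median region in place of the mean). Nanog gave -0.36 (0.403 to 0.320 and 0.295 RPM, limma adjusted p = 0.44) and Esrrb, an orphan nuclear receptor, -0.59 (limma adjusted p = 0.17). The means of these loci hid larger changes at single sites. The promoter region of Nanog went from 0.319 RPM to 0.0402 and 0.0695 (difference -2.04), while a region 44.3 kb downstream, in an intron of Slc2a3, went from 0.154 to 0.452 and 0.454. The promoter region of Pou5f1 went from 0.744 to 0.211 and 0.241 RPM (-1.60), and the Esrrb intron region shown from 0.851 to 0.0754 and 0.144. In the library test over single regions, with p-values adjusted over 24967 regions, the Nanog promoter region fell (limma adjusted p = 7.9e-09) and so did the Esrrb region (limma adjusted p = 4.4e-10).

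Of the wider naive pluripotency list Klf2 was the only gene called of 20 with a region (median 0.13). Of the 222 regions of the list 51 were higher (23.0%, against 31.0% of all regions) and 30 lower (13.5%, against 7.27%). Klf5 (0.76) and Sall4 (0.73) were the 2 of 20 genes above the shift of 0.56, and the median of the list relative to that shift was -0.43. Fbxo15 (0.54) lay just below the shift, and Nr0b1 (-0.53), Tfcp2l1 (-0.34), Nr5a2 (-0.33) and Prdm14 (-0.19) lay below 0. Of the formative list, genes switched on as ES cells leave the naive state, Fgf5 was lower (0.341 to 0.101 RPM, -1.50, limma adjusted p = 4.1e-05) and Dnmt3b, a de novo DNA methyltransferase, was higher at its single region (1.64). Foxd3 (-0.94), Cdh2 (-0.44) and Otx2 (-0.17) did not pass the call, and 13 of the 55 regions of the list were lower against 4 higher.

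The basement membrane list held 12 of 18 higher genes and none lower (median 1.30), with 71 of 141 regions higher and 5 lower. Its members cover the chains of the network and the enzymes that modify collagen. Col4a1 and Col4a2, the main chains of collagen IV, gave 1.87 (0.135 to 0.573 RPM, limma adjusted p = 5.6e-08) and 1.74 (11 of 13 regions higher). Lamb1 had 5 of 5 regions higher (1.60, limma adjusted p = 3.8e-05) and Lama1 gave 1.38. Among the enzymes, the prolyl hydroxylase subunits P4ha2 and P4ha1 gave 2.49 (0.0630 to 0.493 RPM, 4 of 4 regions, limma adjusted p = 1.5e-11) and 1.86 (limma adjusted p = 3.8e-08), and the lysyl hydroxylases Plod2 and Plod1 gave 1.70 and 1.04. Serpinh1, the collagen chaperone HSP47, gave 1.45, Sparc 1.21, the integrin ligand Npnt 1.75 and nidogen 2 (Nid2) 1.13.

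Not every matrix gene followed. Lamc1 (0.81) and Hspg2, which encodes perlecan (0.64), did not pass the call. Lama5, the laminin alpha chain of mature epithelia, went from 0.686 to 0.426 RPM (-0.65) with 3 of 5 regions lower, and fibronectin (Fn1) gave -0.13. The whole collagen family, 31 genes, had a median of 0.34 with 9 higher and 3 lower, the lower ones being Col18a1, Col3a1 (-1.38) and Col6a5 (-1.02). Of 10 laminin genes Lama1, Lamb1 and Lamb2 (1.12) were higher and Lamc3 was lower (-1.61), a list read out after its values were seen. Neither Col18a1 nor Lamc3 was in the basement membrane list, so the absence of lower genes there depends on which genes it held.

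Genes of uptake and digestion also had high medians. In the endocytic list 7 of 13 genes were higher (median 1.23). Cubn encodes cubilin, a scavenging receptor of visceral endoderm, and 7 of 8 of its regions were higher (0.147 to 0.617 RPM, 1.87). Amn, its membrane partner amnionless, gave 1.60, and Lrp2, the receptor megalin, gave 1.27 with 10 of 17 regions higher (0.105 to 0.297 RPM). Of the trafficking genes Rab7 gave 1.60 (limma adjusted p = 9.0e-06), Snx2 1.58 and Rab11a 1.36. Lrp1, a related receptor with 1 region (-0.83 against d0), fell by 1.08 on the log2 scale in the library test (limma adjusted p = 0.0039), and Dab2, an endocytic adaptor, gave 0.52 with 5 higher and 3 lower of 13 regions.

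In the lysosomal list 7 of 14 genes were higher and none lower (median 1.05), and 28 of 51 regions were higher with none lower. Beside Lgmn and Ctsh, Ctsl, the cathepsin that parietal and visceral endoderm are known to make, went from 0.137 to 0.726 RPM with 7 of 8 regions higher (2.17, limma adjusted p = 9.3e-10). Hexa, a subunit of hexosaminidase, gave 1.81, Ctsc 1.68, Ctsz 1.20 and Lamp1 1.18, whereas Ctsb gave -0.12. Of the secreted transport proteins, 10 of 18 genes had a region, and 6 were higher (median 1.22). The list rests on 26 regions, of which 9 were higher and 1 lower, 34.6% and 3.85%, and its median region difference was 0.43, below the 0.52 of all regions. The higher genes were Apoa4 (1.72), Mttp (1.56), Ttr (1.39), Spp2 (1.38), Apoa2 (1.34) and Apom (1.11). Apoe, with -0.76 (1.32 to 0.765 RPM), and Apob, with -0.58, differed in sign from them, and Afp, Alb, Fga, Fgb and Fgg had no region nearest to them.

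The descendant tissues of primitive endoderm had marker lists of their own, which share genes with the lists above. Of parietal endoderm genes 7 of 12 were higher (median 1.15), among them Pth1r, the receptor for parathyroid hormone-related protein (1.76, limma adjusted p = 3.0e-05), Thbd (1.49), Plat (1.26), Fst (1.17) and Tfpi (1.12). The retinol transporter Stra6 gave -0.65. Of visceral endoderm genes 7 of 12 were higher (median 1.27), among them Bmp2 (1.86, 8 of 11 regions), Ihh (1.55, limma adjusted p = 2.9e-05) and Dkk1 (1.16). Cer1 and Lefty1, secreted Nodal antagonists of anterior visceral endoderm, gave 0.60 and -0.45. The difference between the parietal and visceral lists was not tested.

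FGF signalling through ERK is known to direct inner cell mass cells to primitive endoderm. Of its 24 genes with a region, 6 were higher and 1, Fgf5, lower (median 0.50), close to the median of all genes. The receptors Fgfr4 and Fgfr3 gave 1.63 and 1.14, and the adaptors and kinase Frs2, Grb2 and Mapk3 gave 1.29, 1.16 and 1.03, with Fgf3 at 1.21. The feedback inhibitors and targets of the pathway differed in sign and none of them passed the call. Spry4 gave -0.51 with 4 of 11 regions lower, Spred1 -0.51, Dusp6 -0.47, Etv4 -0.45, Spry1 -0.39, Etv5 -0.38 and Etv1 -0.37. Dusp4 gave 0.87 with 8 of 21 regions higher, Dusp5 0.56, Spry2 0.54 and Spred2 0.45. No region had Fgf4 as its nearest gene.

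Among other receptor tyrosine kinases and ligands 5 of 21 genes were higher and none lower (median 0.85). Kdr, the VEGF receptor 2, went from 0.0625 to 0.408 and 0.434 RPM with 6 of 7 regions higher (2.29, limma adjusted p = 1.1e-09). Pdgfra, the PDGF receptor that marks primitive endoderm, went from 0.184 to 0.556 and 0.569 RPM with 10 of 17 higher (1.47, limma adjusted p = 1.3e-05). Kit, the receptor for stem cell factor, which lies beside them in the genome, gave 1.44 (limma adjusted p = 0.00015), Vegfa 1.61 and Pdgfrb 1.50. The ligand Pdgfa gave -0.39.

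The Nodal and TGF-beta list held genes called in both directions. Nodal, its co-receptor Tdgf1 (Cripto) and its antagonist Lefty2 were the 3 lower genes of 24. Nodal went from 1.16 to 0.331 RPM (-1.72, limma adjusted p = 4.6e-06), Tdgf1 from 0.753 to 0.207 RPM (-1.72, limma adjusted p = 1.3e-06) and Lefty2 gave -1.21 (limma adjusted p = 0.00043). The receptors Tgfbr2 (1.33, 13 of 26 regions, limma adjusted p = 0.00017) and Acvr1b (1.28), the mediators Smad2 and Smad4 (1.36 each), the ligand Tgfb3 (1.55) and the latency protein Ltbp1 (1.28) were among the 8 higher genes. The median of the list, 0.61, lay near that of all genes.

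Of the BMP list 8 of 22 genes were higher and 2 lower (median 0.74). Bmp6, a ligand made by endoderm, had the steepest difference (0.0931 to 0.467 RPM, 2.01, 9 of 11 regions, limma adjusted p = 7.0e-08), followed by Bmper (1.89), Bmp2 (1.86), the receptor Acvr1 (1.74), Nog (1.46), the target gene Id1 (1.19), Smad1 (1.04) and Smurf1 (1.02). Bmp4 was lower (0.240 to 0.0898 RPM, -1.18), and so was the receptor Bmpr1b at its single region (0.312 to 0.0211 RPM, -2.74). The ligands of this family therefore moved in opposite directions.

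Of 35 Wnt genes 8 were higher and 2 lower (median 0.33). The higher ones were the receptor Fzd6 (2.37), the ligands Wnt5b (1.67), Wnt5a (1.33) and Wnt11 (1.24), the receptor ligase Rnf43 (1.34), Tcf7l2 (1.27), the target Sp5 (1.20) and the inhibitor Dkk1 (1.16). The lower ones were Fzd3 (-1.83) and the Wnt deacylase Notum (-1.43). In the LIF list, the pathway of the cytokine present in the ES medium, the receptor Lifr was higher with 11 of 20 regions (1.01), and the feedback inhibitors Cish (-1.24) and Socs2 (-1.21) were lower. Stat3 gave 0.65. The median of the LIF list, -0.13, became 0.24 when a gene was given its median region and 0.23 when all annotated genes were allowed as nearest gene.

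Of the Hippo list, whose 21 entries include the older symbols of Ccn1 and Ccn2, 16 entries had a region, 8 were higher and 1 lower (median 0.97). The higher genes were the YAP target Ccn1 (1.86), the kinase Lats2 (1.77) and its partner Sav1 (1.40), the angiomotins Amotl1 (1.37), Amot (1.32) and Amotl2 (1.05), Vgll4 (1.16) and Wwtr1, which encodes TAZ (1.04). Stk4, the kinase MST1, was lower (-1.21), and Yap1 gave 0.66. In the retinoid list Aldh1a1, an enzyme that makes retinoic acid (1.39), the degrading enzymes Cyp26a1 (1.37) and Cyp26b1 (1.10) and the receptor Rarb (1.29) were higher, and Rxrg (-1.12) was lower, of 12 genes. The median of the retinoid list was 0.08, and it was -0.15 when only regions within 100 kb of a start were used.

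Of 22 genes of epithelial junctions and polarity 7 were higher and 1 lower (median 0.71). Occludin (Ocln, 1.97), plakophilin 2 (Pkp2, 1.89), cingulin (Cgn, 1.73), Pard6b (1.53), the scaffold proteins Tjp3 (1.07) and Tjp1 (1.05) and keratin 8 (Krt8, 1.02) were higher. Cldn4 was the lower gene, and E-cadherin (Cdh1) gave -0.08. Of 23 integrin and cell surface proteoglycan genes 5 were higher and 2 lower (median 0.43). Higher were Gpc6 (1.94, 9 of 13 regions), talin 1 (Tln1, 1.45), Itgb1 (1.17), Itga9 (1.10) and Itga5 (1.05), and lower were Itgb3 (-1.85) and Sdc2 (-1.31).

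Of the 19 DNA methylation and Polycomb genes Dnmt3b (1.64) and Ezh1 (1.28) were called higher and none lower (median 0.27), and Eed and Mtf2 gave -0.67 and -0.58. Lists of other lineages had called genes as well. The neural list had 7 of 11 higher genes (median 1.11), among them Sox1 (1.91), Pou3f2 (1.90), Zic1 (1.24), Neurod1 (1.23), Pax6 (1.11) and Neurog2 (1.00), most of them with few regions, 27 in the whole list. In the trophoblast list (median 0.50) Gata3 was higher (1.82), Tfap2c was lower and Cdx2 gave 0.52. In the mesoderm list (median 0.43) Kdr and Twist1 (1.45) were higher, Mesp2 (-1.03) was lower and T gave 0.08. The median of the neural list thus lay among those of the endoderm lists.

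Feeder cells are fibroblasts and could add reads to either group. Of 14 fibroblast genes with a region 3 were higher, Dcn (1.66), Twist1 (1.45) and Col5a1 (1.27), and 1 was lower, Col3a1 (-1.38), and their summed value was 3.14 RPM at d0 and 6.10 on day 4 (median difference 0.33). Their part in the gains near matrix genes was not tested. Of 15 housekeeping genes 2 were higher, Hprt (1.39) and Pgk1 (1.03), and none lower (median 0.50), with Actb at 0.60 and Gapdh at 0.21. These genes thus moved by about the shift of all regions.

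Gene families defined by symbol had medians between 0.21 and 0.78. Laminins had 0.78, solute carriers (252 genes) 0.51, with 72 higher and 11 lower, and olfactory receptors (149 genes) 0.49 with 46 higher and 12 lower. Zinc finger Zfp genes had 0.49, Sox genes 0.34, Klf genes 0.24 and potassium channels (Kcn) 0.21. The spread between families was small beside that between the function lists. Several families were far larger than any list, and the lists were chosen with earlier results of these data known. This contrast is therefore not a result about gene function.

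Promoters were compared with distal regions. Of 2303 regions within 1 kb of a start 22.4% were higher and 2.87% lower, with a median difference of 0.68. Of 19483 intergenic regions 30.9% were higher and 8.60% lower, with a median of 0.45, and of 19167 intron regions 32.3% and 6.66%. Promoters therefore held a smaller share of called regions in both directions but a higher median difference. The median RPM went from 0.284 at d0 to 0.448 on day 4 at promoters. It went from 0.0723 to 0.117 at intergenic regions and from 0.0729 to 0.125 at intron regions. The constant added to RPM understates the change of such weak regions. The higher median difference at promoters is therefore not a result about position, and regions of like d0 level were not compared. At the 1555 genes with both a promoter region and another region, the promoter was higher at 363 and the mean of the others at 480, with both at 153.

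Single genes differed in which side moved. At Nanog the promoter gave -2.04 and the mean of its other regions -0.25. At Srgn the promoter gave 3.04 and the other regions 2.38. Other genes showed the reverse. Lama1 gave 0.59 at the promoter and 1.49 elsewhere, the YAP target Ccn2 0.06 and 0.88, Spry4 0.24 and -0.80, and Dusp6 0.21 and -0.74. The Wnt receptor Fzd5 had a higher promoter (1.18) beside other regions at -0.29.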

How the data were processed

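The authors mapped paired-end ATAC-seq reads with Bowtie2 to mm10, after trimming with cutadapt, shifted them for the Tn5 cut and counted short fragments per region. Tool names are those of the submitters' processing notes, and versions are not given in the sources used here. The deposited table gives accessibility as RPM, averaged by the authors over the cultures of a group, for 42403 regions, beside the authors' peak classes and a score for the best GATA6 motif match. Of its 105 columns, 52 hold per-sample values of other assays or of columns outside this comparison and were not used. Region widths were not divided out. Depth was high: the day 4 libraries were scaled by the authors to 199 and 187 M reads and the 8h libraries to 211 to 213 M, of which 592500 to 1245915 fell in the regions whose reads could be worked out.

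Differences used log2(RPM + 0.03). The nearest gene was the GENCODE M21 protein-coding start closest to a region's centre. Gene values were means over regions. The planned test assumed a column per replicate, and the averages did not allow it. Read counts of single libraries were instead worked out from the digits of the averages for 8h, 16h, d1, d2 and day 4, with no solution for d0. Tested were the 24967 regions and 7384 genes worked out in all of these libraries. The log2 values of day 4 were tested against those of 8h with limma 3.58.1 in R 4.3.3 at an adjusted p of 0.05. All of these libraries entered the estimate of spread. The gene test was added after the data were seen. Both steps were tested on simulated data. The p-values rest on the spread between cultures of a line. In the gene test this spread was 1 value shared by all genes, so it does not describe a single gene.

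The genes named were the 12 largest differences in each direction among genes with at least 5 regions and 2 RPM in sum, the 10 with the most higher or lower regions, and the called members of 26 lists with up to 6 further members. A few further genes were chosen after their values were seen, and some members that the rule names are not reported here. The comparison, members and lists were chosen with earlier results of these data known. Alternatives changed the pseudocount, scaling, filter, baseline, gene assignment and libraries.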

Additional observations from a re-analysis of the deposited data

How the results depend on the processing

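No paired analysis was possible because d0 could not be resolved into libraries and the letters of the libraries worked out for day 4 and 8h are arbitrary and shared by no label. With a pseudocount of 0.15 the counts were 6887 regions past 2-fold (5915 higher, 972 lower) and 1292 genes (1190 higher, 102 lower), and the library test called 3942 regions (3456 higher, 486 lower) and 777 genes (732 higher, 45 lower). With a pseudocount of 0.006 the library test had 421 lower genes. With centred columns the calls were 6684 higher and 6959 lower regions and 1297 higher and 1463 lower genes, and with quantile normalisation 6838 and 6742 regions and 1310 and 1466 genes. The library test gave 3955 higher and 3982 lower regions and 738 and 900 genes when centred, and 4193 and 4085 regions and 851 and 851 genes with quantile normalisation. Among genes with 3 or more regions 1662 were called (1573 higher, 89 lower). With the nearest of all GENCODE genes, an alternative added after the data were seen, 7278 genes were called (6059 higher, 1219 lower), and 55.5% of regions had another nearest gene. Leaving out a day 4 library gave 15922 to 16406 regions and 3824 to 4127 genes past 2-fold. Leaving out each 8h library in turn, the library test gave 153 to 417 lower and 1565 to 2621 higher genes, and 1105 to 2272 lower and 6279 to 8759 higher regions. Against 8h in place of d0, 15640 regions and 3823 genes passed 2-fold. Of the 26 list medians none turned its sign against the 8h baseline or without a day 4 library. Because d0 is an average with no spread, differences between d0 and day 4 carry no error of their own.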
